A study of Mus musculus with 32 samples.

Results

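The imprinted domain of mouse chromosome 7 that runs from Ube3a through the Snord115 and Snord116 clusters and Snrpn to Ndn, Magel2 and Peg12 was examined in the 6 ATAC-seq peak lists of OFC astrocytes. A peak was a member when it lay in the 3.5 Mb of chromosome 7 that begin at 59 Mb (mm10), or when its listed gene was Snord116l2, Snrpn, Ube3a, Ndn, Magel2 or a copy of Snord115 or Snord116. The domain and its genes were chosen from the called peaks of these same lists, so the presence of peaks there is a description and not a finding. By this rule 88 of the 16174 listed peaks were members, all of them through their position, and only 9 of the 88 carried a member gene's name.

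Each list stood for 1 group of samples, with 3 mice pooled per sample and all mice male C57BL/6J. In the knockdown experiment, GFP control (5 samples) and GFP CSDS (5) received the control virus AAV6-GFAP-mirNeg, which the sample labels call GFP, and Zbt-KD control (5) and Zbt-KD CSDS (5) received AAV6-GFAP-Zbtb7a-KD-mir against the transcription factor Zbtb7a. The CSDS groups were exposed to chronic social defeat for 10 days and the control groups were not. In the overexpression experiment, GFP SSDS (6 samples) received AAV6-GFAP-GFP and ZBT-OE SSDS (6) received AAV6-GFAP-ZBTB7A OE, in mice 8 weeks old. Their labels name the virus only, and 1 day of subthreshold social defeat (SSDS) in both was taken from the study's methods. The GFAP promoter limited each virus to GFAP-expressing cells of the injected OFC, and the cells were isolated with beads against the astrocyte antigen ACSA-2, so that both transduced and untransduced astrocytes could be present. The lists hold no value per sample. From these lists there was therefore no spread between replicates and no test between groups, and the read depth behind a peak is unknown.

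Imprinted genes are expressed from only the maternal or only the paternal copy. In this domain Snrpn, the small nucleolar RNA (snoRNA) clusters, Ndn, Magel2, Mkrn3 and Peg12 are expressed from the paternal chromosome under an imprinting centre at the main Snrpn promoter. In neurons a long paternal transcript, Snhg14, starts upstream of Snrpn, hosts the Snord116 and Snord115 copies in its introns and runs antisense through Ube3a, whose paternal copy is silenced there, while glial cells generally express Ube3a from both copies. Loss of the paternal genes is known for Prader-Willi syndrome and loss of maternal UBE3A for Angelman syndrome. Decondensation of the snoRNA clusters on the paternal chromosome has been described in neurons.

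The snoRNA copies are shown because the lists of the knockdown and overexpression experiments differed widely over the Snord116 cluster. In RefSeq GRCm38.p6, whose coordinates are those of mm10, the domain held 132 copies of Snord115 and 69 of Snord116, all on the minus strand. Most copies were nearly alike. Among the Snord115 copies there were 54 distinct sequences, and 32 copies shared the most frequent one. Among the Snord116 copies there were 27, and 28 copies shared the most frequent. The median identity to the most frequent sequence was 98.7% for Snord115 (lowest 72.2%) and 98.9% for Snord116 (lowest 95.7%), whereas the most frequent sequences of the families were 56.4% identical to each other. The copy of Snord115 shown lies at chr7:59393561-59393639 and was inside a peak in all 6 lists. The most frequent Snord116 sequence is shown from chr7:59678509-59678602, which was inside a peak in 5 lists, and Snord116l12 from chr7:59904755-59904848, the copy nearest to Snrpn, which was in none. Capitals mark the C box (ATGATGA) and the D box (CTGA, the last match), the paired motifs that define this class of snoRNA.
Snord115: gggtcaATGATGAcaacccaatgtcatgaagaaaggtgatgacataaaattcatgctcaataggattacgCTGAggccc
Snord116: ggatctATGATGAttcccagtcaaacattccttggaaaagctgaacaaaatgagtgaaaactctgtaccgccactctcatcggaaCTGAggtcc
Snord116l12: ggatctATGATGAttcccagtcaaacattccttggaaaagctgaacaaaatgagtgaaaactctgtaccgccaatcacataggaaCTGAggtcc
Both boxes were found in 119 of the 132 Snord115 copies and in 65 of the 69 Snord116 copies. In the most frequent Snord115 sequence, positions 53 to 70 from its 5′ end formed the longest stretch complementary to a transcript of Htr2c, the serotonin receptor whose pre-mRNA Snord115 is known to pair with. That stretch, in capitals below, was 18 bases long and was present in 102 of the 132 copies.
Snord115 with the Htr2c match: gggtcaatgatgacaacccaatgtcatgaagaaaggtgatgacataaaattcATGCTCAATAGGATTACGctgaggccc

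The promoters of Ube3a and Snrpn are shown because each of their starts was either inside a peak in all 6 lists or inside a peak in none. Each sequence covers 250 bases before to 50 after the start in RefSeq GRCm38.p6, read 5′ to 3′ along the gene, with CpG (CG) in capitals. The first is Ube3a (plus strand, chr7:59228500-59228799), inside a peak in 6 lists. The second is the most upstream start of Snrpn, shared with Snhg14 (minus strand, chr7:60450128-60450427), inside a peak in 6 lists. The third is another upstream Snrpn start (minus strand, chr7:60140176-60140475), and the last the main start of Snrpn and Snurf (minus strand, chr7:60005150-60005449), both inside a peak in 0 lists.
Ube3a: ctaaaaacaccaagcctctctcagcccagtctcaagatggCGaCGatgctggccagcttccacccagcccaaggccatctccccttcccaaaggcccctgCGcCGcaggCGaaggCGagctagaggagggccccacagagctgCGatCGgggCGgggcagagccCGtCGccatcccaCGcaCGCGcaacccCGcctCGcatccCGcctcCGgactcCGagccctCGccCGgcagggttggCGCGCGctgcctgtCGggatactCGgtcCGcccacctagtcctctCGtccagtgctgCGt
Snrpn and Snhg14 upstream start: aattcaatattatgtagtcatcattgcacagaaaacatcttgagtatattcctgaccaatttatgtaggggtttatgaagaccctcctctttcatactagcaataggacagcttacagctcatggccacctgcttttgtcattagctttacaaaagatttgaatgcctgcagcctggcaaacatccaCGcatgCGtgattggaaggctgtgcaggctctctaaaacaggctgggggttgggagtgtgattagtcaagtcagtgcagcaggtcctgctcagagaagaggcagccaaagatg
Snrpn upstream start without a peak: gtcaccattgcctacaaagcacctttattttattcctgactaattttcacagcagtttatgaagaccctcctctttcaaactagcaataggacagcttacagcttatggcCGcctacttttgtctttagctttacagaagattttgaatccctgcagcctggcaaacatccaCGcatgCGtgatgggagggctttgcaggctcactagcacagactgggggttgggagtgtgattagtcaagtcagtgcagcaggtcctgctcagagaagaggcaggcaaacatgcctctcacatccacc
Snrpn main start: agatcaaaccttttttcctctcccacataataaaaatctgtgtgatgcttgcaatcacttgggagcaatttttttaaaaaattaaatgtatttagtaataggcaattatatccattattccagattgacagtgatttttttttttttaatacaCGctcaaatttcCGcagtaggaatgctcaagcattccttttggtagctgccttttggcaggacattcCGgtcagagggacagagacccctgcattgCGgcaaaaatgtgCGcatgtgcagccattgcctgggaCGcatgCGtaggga
The Ube3a promoter held 29 CpGs, a number that 12.9% of 32807 RefSeq promoters of the same length reached. The upstream start in a peak held 2 CpGs (85.9% of promoters had at least as many), the upstream start without a peak 3 (76.7%) and the main Snrpn start 7 (52.1%). The upstream starts with and without a peak were 79% identical over their 300 bases, and the one with a peak was 49.3% identical to the main start.

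Peaks covered a large share of the domain in every list, most of it in a few very wide blocks. Peaks covered 31.9% of its bases in GFP control, 29.2% in GFP CSDS, 34.9% in Zbt-KD control, 34.4% in Zbt-KD CSDS, 40.1% in GFP SSDS and 36% in ZBT-OE SSDS. On the autosomes outside the domain the shares were 5.81%, 6.83%, 6.95%, 7.1%, 8.79% and 9.12% in the same order, and on the rest of chromosome 7 they lay between 11% and 15.2%. The domain was thus covered 3.94 times (ZBT-OE SSDS) to 5.48 times (GFP control) as much as the autosomes. Since it was chosen from the peaks of these lists, this excess is a description and not a finding. Stretches this covered were uncommon but not unique to the domain. Of 691 windows of 3.5 Mb tiled over the autosomes, 2.89% were covered at least as much as the domain in GFP control, 4.2% in GFP CSDS, 2.75% in Zbt-KD control, 3.04% in Zbt-KD CSDS, 2.89% in GFP SSDS and 3.91% in ZBT-OE SSDS.

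**Figure D1:**
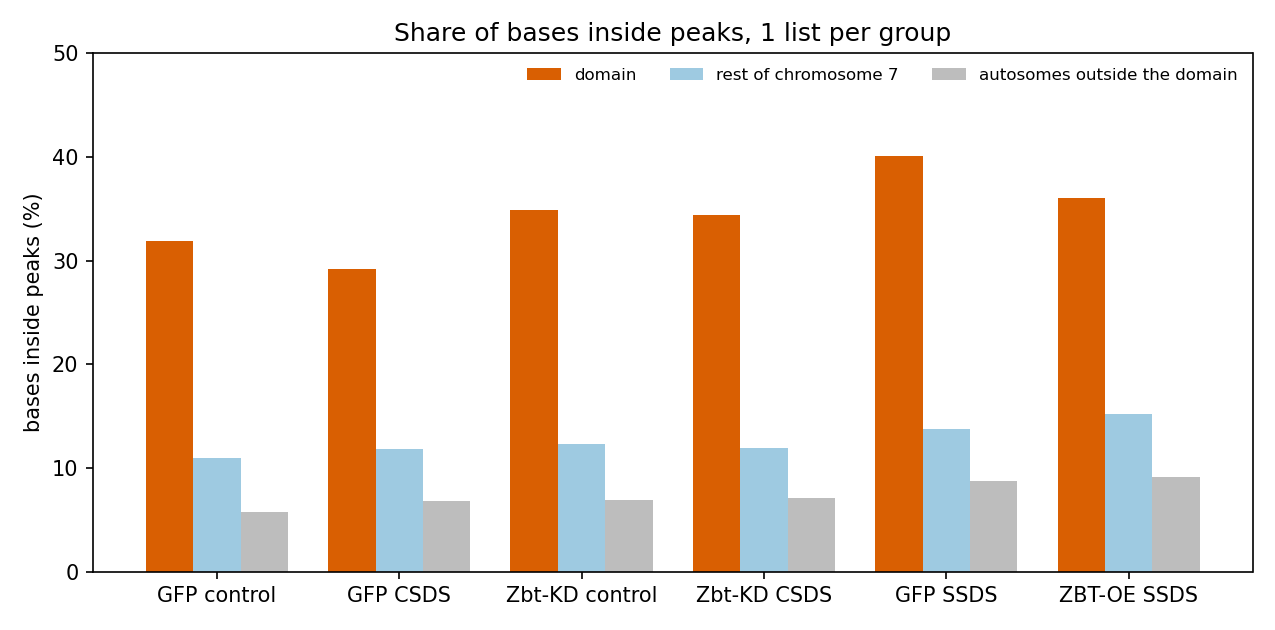
Share of bases inside peaks (%, vertical axis) in each of the 6 peak lists, for the domain (orange), the rest of chromosome 7 (blue) and the autosomes outside the domain (grey); each bar is 1 list, so there are no error bars. The domain bars lie between 29.2% and 40.1%, above the other bars of each list, which is a description because the domain was chosen from these peaks.

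The number of member peaks differed much more between lists than the bases they covered. GFP control held 42 member peaks of 6184, GFP CSDS 13 of 4064, Zbt-KD control 12 of 1558, Zbt-KD CSDS 8 of 1403, GFP SSDS 7 of 1548 and ZBT-OE SSDS 6 of 1417. The median width of a member peak was 1.9 kb in GFP control and 159 kb in ZBT-OE SSDS, and the median over each whole list moved the same way, from 2.04 to 87.7 kb. The widest peak of a list measured 8.04 Mb in GFP CSDS and 14.5 Mb in both Zbt-KD lists, with the other lists between. The narrowest peak of a list was 687 bp in GFP control and 20269 bp in ZBT-OE SSDS, so the lists did not share a lower limit of width. Fold enrichment, the peak caller's ratio of a peak's signal over background, was therefore compared only within a list, as the share of that list's peaks with at least the same value.

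Counted by base, 26% of the domain (0.911 Mb) was inside a peak in all 6 lists, and 57.3% (2.01 Mb) in none. Of the bases covered in any list, 61% were covered in all 6, against 46.6% on the autosomes. The domain was chosen from the peaks of these lists, so nothing is read from that contrast. The bases covered in all 6 lists were concentrated in 4 blocks, over Ube3a and Snord115, over a short stretch of the proximal Snord116 block at its side away from Snrpn, over the upstream start of Snrpn and Snhg14, and at A230006K03Rik. No peak crossed a bound of the domain. The outermost member peaks began 206 to 208 kb inside the lower bound and ended 992 to 1070 kb inside the upper bound. The nearest peaks outside lay 578 to 723 kb below the domain, listed to Atp10a, and from 195 kb (GFP CSDS and Zbt-KD control) to 10700 kb (ZBT-OE SSDS) above it.

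**Figure D2:**
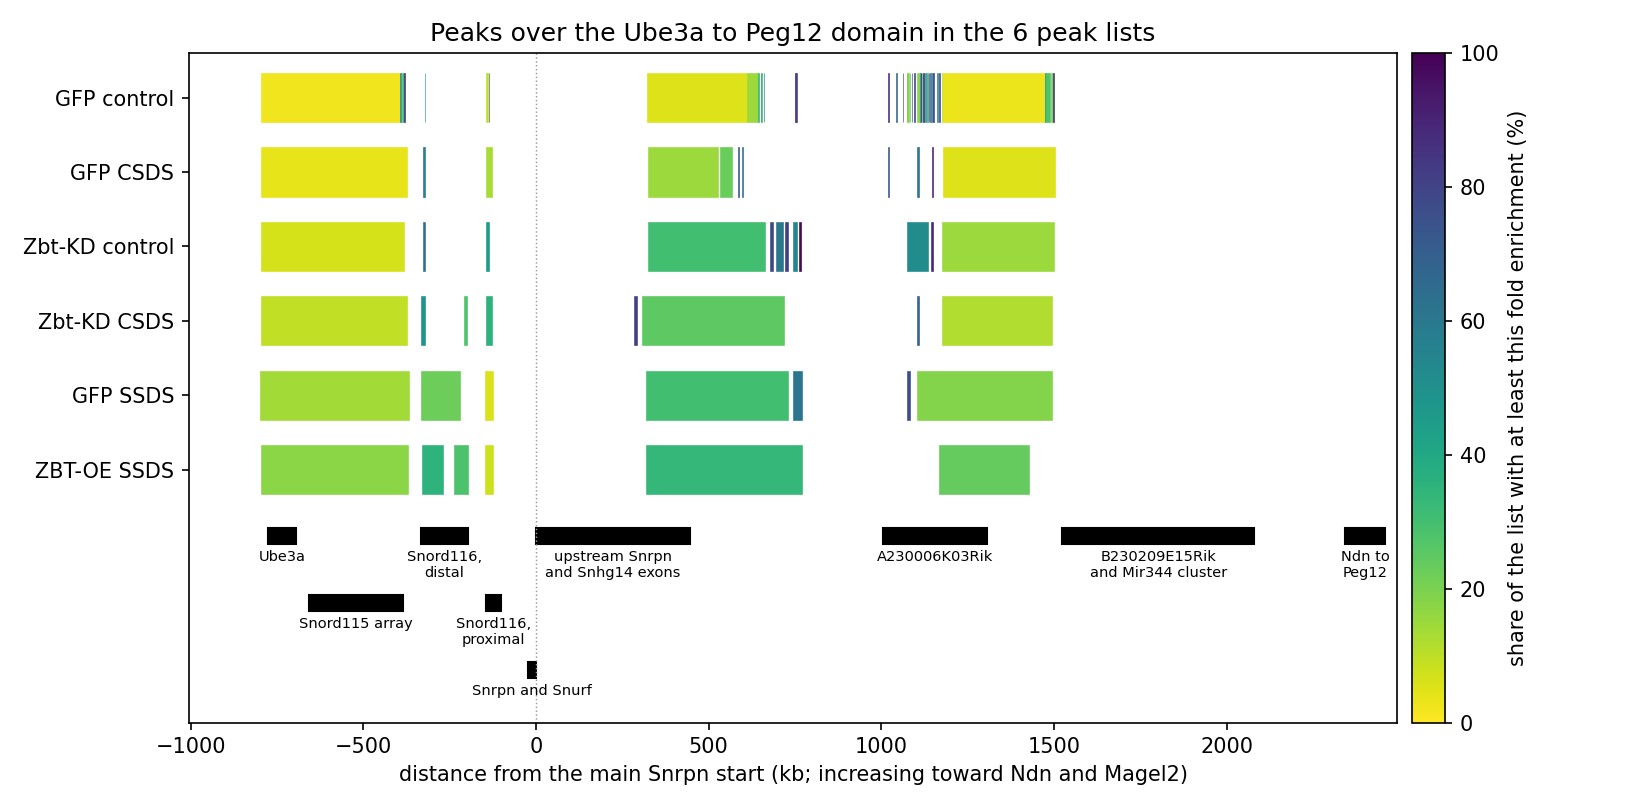
Peaks of the 6 lists along the domain, by distance from the main Snrpn start in kb (horizontal axis, dotted line at 0); each coloured bar is a member peak, its colour the share of its list's peaks with at least the same fold enrichment (yellow for the strongest), and black bars below mark genes and arrays. The blocks over Ube3a and Snord115, the upstream Snrpn start and A230006K03Rik were present in all 6 lists, and no list had a peak from B230209E15Rik to Peg12.

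The block over Ube3a and Snord115 was the most constant. Ube3a, a ubiquitin ligase (chr7:59228750-59310837), was 100% inside a peak in all 6 lists, and so was the stretch between its end and the Snord115 array. The same peak went on through most of the array (chr7:59347173-59619095) in GFP control and through all of it in the other lists. All 132 Snord115 copies lay in a peak in 5 lists and 130 in GFP control, where short breaks near the end of the array split the block from 2 smaller peaks. The peak measured 402 kb in GFP control and 424 kb with chronic stress (GFP CSDS), 413 and 424 kb in the corresponding Zbt-KD lists, 432 kb in GFP SSDS and 427 kb in ZBT-OE SSDS. Its edge upstream of Ube3a, 20.3 to 22.7 kb before the gene's start, lay within 2.42 kb over the 6 lists, whereas its other edge varied by 27.8 kb. Its fold enrichment was 3.34 in GFP control, 3.42 in GFP CSDS, 3.66 in Zbt-KD control, 3.32 in Zbt-KD CSDS, 3.32 in GFP SSDS and 3.20 in ZBT-OE SSDS. In GFP control 2.23% of peaks had at least that value, and in ZBT-OE SSDS 17.4%, with 3.76%, 6.35%, 9.69% and 13.8% in the other lists in the order above. It was the member peak with the highest fold enrichment in the 4 lists of the knockdown experiment.

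As a share of a stretch, the distal part of the Snord116 array was where the lists of the 2 experiments were furthest apart, while within the knockdown experiment the stretch beyond the Snhg14 start varied more, from 22% to 49%. RefSeq places it in 2 blocks around a 50 kb assembly gap (chr7:59807320-59857319), a distal block of 50 copies (chr7:59673461-59807088) and a proximal block of 19 copies nearer to Snrpn (chr7:59859214-59904848). Peaks covered 0.775% of the distal block in GFP control, 3.92% in GFP CSDS, 6.1% in Zbt-KD control and 16.2% in Zbt-KD CSDS. In the other experiment they covered 82.9% in GFP SSDS and 73.6% in ZBT-OE SSDS. Both overexpression lists thus lay above all 4 knockdown lists, and the virus control GFP SSDS was the highest. Of the 50 distal copies, 0 were wholly in a peak in GFP control, 3 in GFP CSDS, 3 in Zbt-KD control, 8 in Zbt-KD CSDS, 40 in GFP SSDS and 36 in ZBT-OE SSDS. The experiment, its control virus, the stress paradigm and the peak widths of the lists all separate these lists and cannot be told apart. The peaks in the distal block were 1.04 to 11.4 kb wide in the knockdown lists and 39.6 to 111 kb in the overexpression lists, and at a common scale of 20.3 kb (shorter gaps closed, then narrower peaks dropped) the former are lost by construction. In the upper 50% of each list by fold enrichment, a comparison added after seeing the data, the distal share became 0% in GFP CSDS and Zbt-KD control and stayed at 0.775% in GFP control and 16.2% in Zbt-KD CSDS, and with equal numbers of the strongest peaks it became 0% in GFP control and GFP CSDS.

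Over the proximal Snord116 block a peak was present in all 6 lists, and it was small. It measured 7.75 kb in GFP control and 15.2 kb with chronic stress (GFP CSDS), 9.04 and 15.2 kb in the corresponding Zbt-KD lists, 22.1 kb in GFP SSDS and 22.9 kb in ZBT-OE SSDS. Its fold enrichment was 2.11, 2.23, 1.86 and 2.08 in the knockdown lists in the same order, and 4.54 in GFP SSDS and 4.29 in ZBT-OE SSDS. In the overexpression lists it was the member peak with the highest fold enrichment, with 5.81% and 7.48% of peaks at or above it, while in the knockdown lists 9.07% to 45.2% were. Of the 19 proximal copies, 3 lay in a peak in GFP control, 6 in GFP CSDS, 3 in Zbt-KD control, 6 in Zbt-KD CSDS, 9 in GFP SSDS and 9 in ZBT-OE SSDS. The 10 copies nearest to Snrpn lay in a peak in 0 lists. Copies with the same letters were covered and not covered. Of the 28 copies with the most frequent sequence printed above, 2 were in a peak in all 6 lists and 7 in none, and the number in a peak ran from 2 in GFP control to 19 in ZBT-OE SSDS.

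From the end of the Snord115 array into the distal Snord116 block runs Ipw, a noncoding paternal transcript. Its start (minus strand, position 59678878) was in a peak in 5 lists and was 4.89 kb from the nearest peak in GFP control. The GFP CSDS peak there (chr7:59678272-59679704) was 1.43 kb wide with a fold enrichment of 1.64, and 62.6% of that list's peaks were at least as strong. Snord116l2 was the listed gene of 5 member peaks in 5 lists. Its RefSeq copy (chr7:59876935-59877024) was in a peak only in GFP SSDS and ZBT-OE SSDS, however, and the GFP control peak listed to it, which lies in the same proximal block, is given a distance of 112 kb that does not refer to this copy. Since its sequence recurs along the array, a gene name in the lists cannot place a peak at 1 copy.

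Snrpn, which encodes a protein of the spliceosome, and Snurf, encoded on the same transcript, showed a split between their starts. The body from the end of Snrpn to the main start (chr7:59982495-60005199) was covered by 0% in all 6 lists, and the main start lay 124 to 136 kb from the nearest peak. The upstream starts at positions 60047978 and 60140225 were in a peak in 0 lists too. By contrast, the most upstream start, at 60450177, from which Snhg14 also begins, was inside a peak in 6 of 6 lists. That peak was 289 kb wide in GFP control and 205 kb with chronic stress, 341 and 409 kb in the corresponding Zbt-KD lists, 411 kb in GFP SSDS and 451 kb in ZBT-OE SSDS. By fold enrichment, 5.3% (GFP control) to 33.5% (ZBT-OE SSDS) of the peaks of its list were at least as strong. Its edge toward Snrpn varied by 14.8 kb over the lists and its edge away from Snrpn by 243 kb.

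The A230006K03Rik block, over and beyond a long noncoding RNA, had no member gene in it. The peak was 294 kb wide in GFP control and 323 kb with chronic stress, 323 and 317 kb in the corresponding Zbt-KD lists, 391 kb in GFP SSDS and 259 kb in ZBT-OE SSDS. By fold enrichment, 3.02% (GFP control) to 23.6% (ZBT-OE SSDS) of the peaks of its list were at least as strong. In GFP control 22 of the 42 member peaks were centred in A230006K03Rik, against 1 to 4 in each of the other lists.

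Beyond this block peaks ended. The genes from B230209E15Rik and the Mir344 microRNA cluster to Peg12 were covered by 0% in all 6 lists. Ndn, which encodes necdin of the MAGE family, started 347 to 915 kb from the nearest peak. Magel2, another MAGE gene, started 318 to 944 kb from it, Mkrn3, a zinc finger and RING protein, 275 to 987 kb, and Peg12, an intronless paternal gene, 231 to 1030 kb. Of the 7 named protein-coding genes of the domain, Ube3a and Snrpn were overlapped by a peak in all 6 lists, each with a start in a peak, and 5 were overlapped in none. The predicted protein-coding gene Gm51483 (chr7:61113180-61113704), within A230006K03Rik and not among the 7, was 100% inside a peak in 5 lists and 0% in ZBT-OE SSDS. Over all other autosomal protein-coding genes, 4.94% of 20550 were overlapped in all 6 lists and 4.34% had a start in a peak in all 6. Since the members were chosen from these peaks, nothing is read from that difference.

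**Figure D3:**
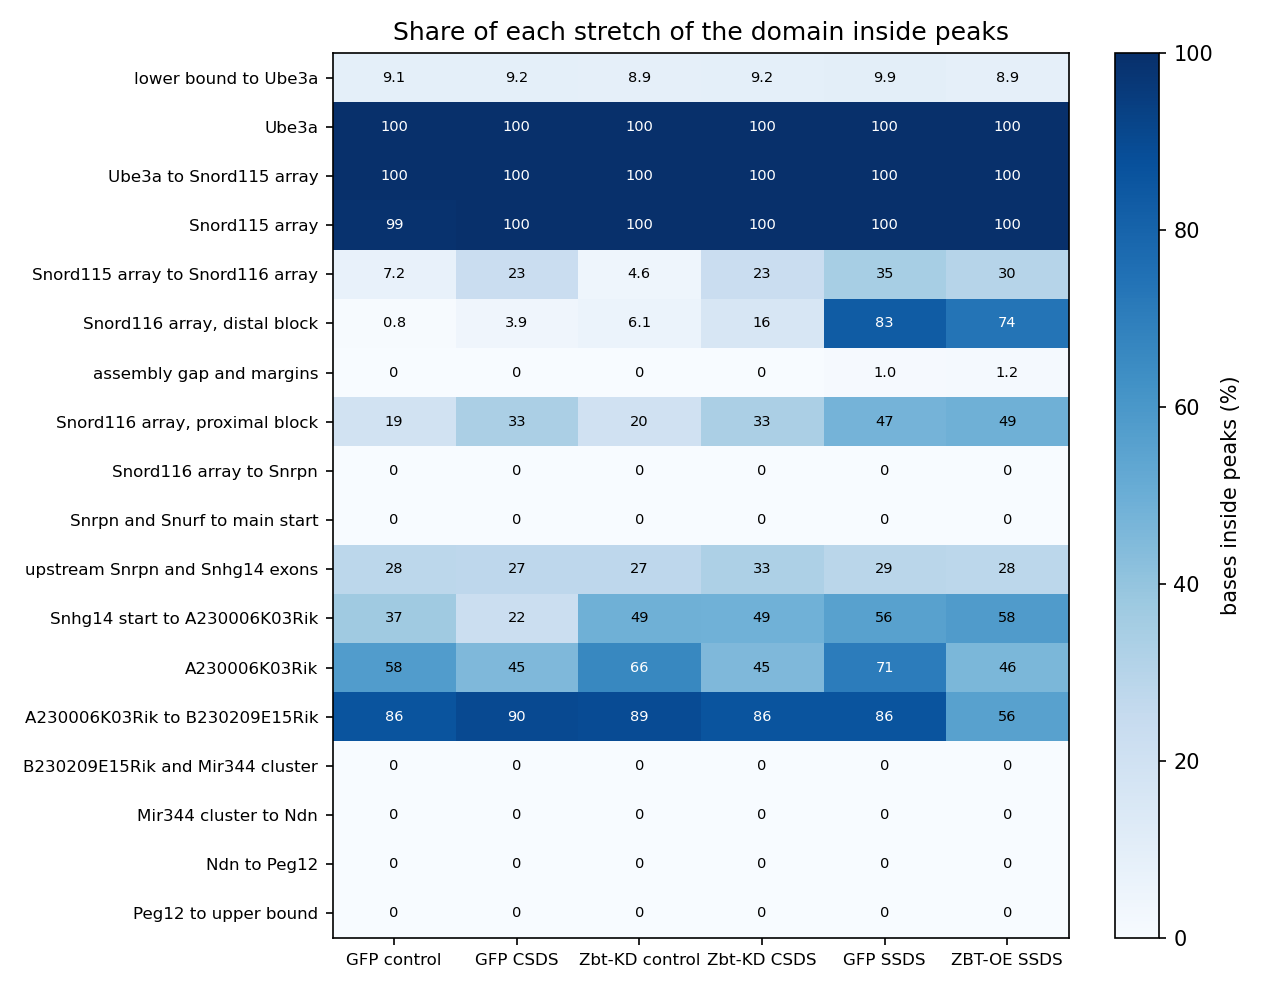
Share of the bases inside peaks (%, colour and printed value) for consecutive stretches of the domain (rows, in order along the chromosome) in the 6 peak lists (columns). Ube3a and Snord115 were covered by at least 99.1% in every list, the distal Snord116 block by 82.9% and 73.6% in GFP SSDS and ZBT-OE SSDS and at most 16.2% in the others.

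Fold enrichment relative to the rest of a list differed between the lists. In GFP control the member peaks ranged in fold enrichment from 1.59 to 3.34 with a median of 1.68, equal to the list's median of 1.68, and 20 of 42 were above it. In GFP CSDS 5 of 13 were above the list's median, in Zbt-KD control 4 of 12, in Zbt-KD CSDS 6 of 8, in GFP SSDS 5 of 7 and in ZBT-OE SSDS 6 of 6. Without the 4 blocks, the counts above the list's median were 16 of 38 in GFP control, 1 of 9 in GFP CSDS, 0 of 8 in Zbt-KD control, 2 of 4 in Zbt-KD CSDS, 1 of 3 in GFP SSDS and 2 of 2 in ZBT-OE SSDS. The highest fold enrichment of a list was 17.6 to 27.9, and that of its member peaks 3.32 to 4.54. By rank, 2.23% (GFP control) to 9.69% (Zbt-KD CSDS) of a list's peaks were at least as strong as its highest member. At least 250 kb wide were 3 of 42 member peaks in GFP control (4.17% over the list), 2 of 13 in GFP CSDS (7.46%), 3 of 12 in Zbt-KD control (20%), 3 of 8 in Zbt-KD CSDS (23.9%), 3 of 7 in GFP SSDS (26.3%) and 3 of 6 in ZBT-OE SSDS (28.3%).

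**Figure D4:**
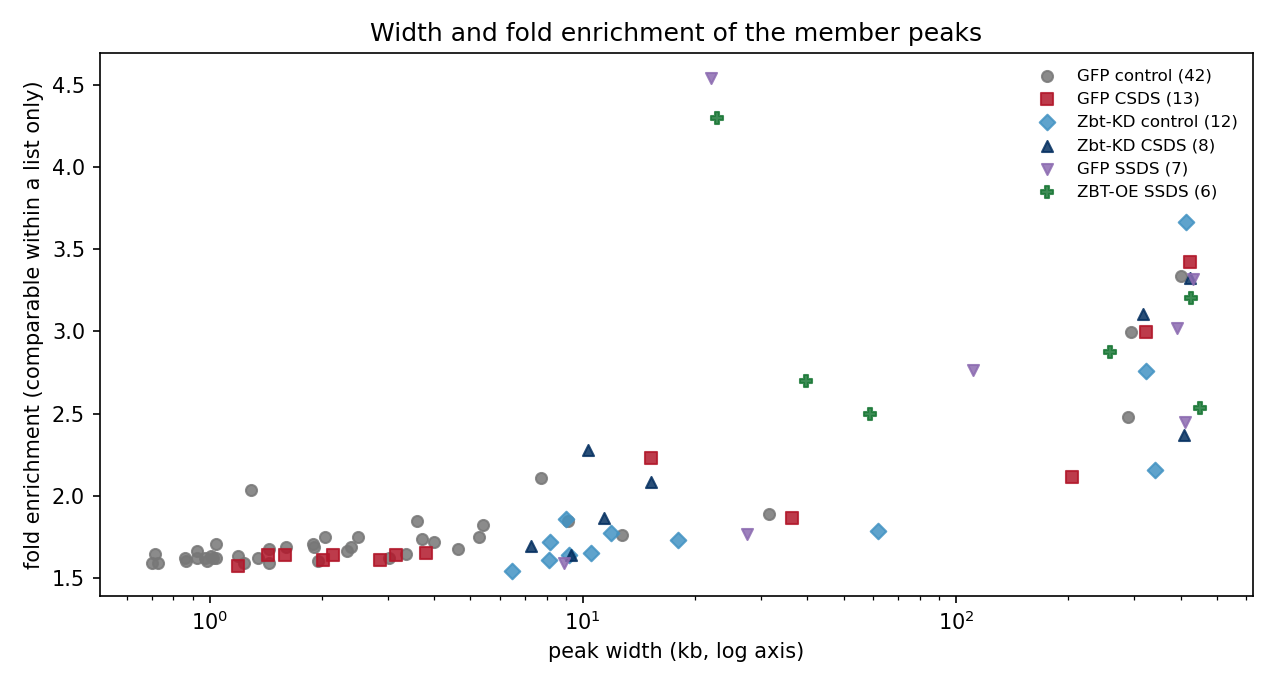
Width (kb, log axis) and fold enrichment of the 88 member peaks, with a symbol and colour for each of the 6 peak lists and the number of members in brackets; fold enrichment is comparable within a list only. Within GFP SSDS and within ZBT-OE SSDS the proximal Snord116 peak (4.54 at 22.1 kb and 4.29 at 22.9 kb) is the highest member, and within each of the other lists it is the Ube3a and Snord115 block.

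The question of which member peaks came or went with stress or with Zbtb7a was read from presence or absence in a pair of lists. A peak of the treated list without a base of overlap in the reference list was called opened, and a reference peak without overlap in the treated list closed. In control-virus mice, chronic stress was accompanied by 1 opened peak of 13 (46.6% opened over all peaks of that list) and 26 closed peaks of 42 (28.3% closed). The opened peak was that at the Ipw start. Of the 26 closed peaks, 19 lay in A230006K03Rik, all 26 were between 0.701 and 31.6 kb wide, and their fold enrichments were 1.59 to 2.04. Many were close neighbours along the same stretch, so the 26 are not separate losses and no excess over 28.3% is read from them. Of the 26, 9 were narrower than the narrowest GFP CSDS peak (1.17 kb). In the upper 50% of each list 12 of 20 were closed and 0 opened. With equal numbers of the strongest peaks 4 of 9 were closed and 0 opened, and at the common scale 0 were closed and 0 opened. At that scale the closed peaks in A230006K03Rik were joined with the block there into a GFP control region of 455 kb (chr7:61049303-61504121). That region overlapped the GFP CSDS block, so the 0 comes from the joining. The shares over all peaks given here and below belong to the full lists. None is at hand for the alternatives, so nothing is read from the counts under them. The 4 blocks, being defined by bases covered in all 6 lists, could not be called closed. In the domain 86.1% of the bases covered in either list were covered in both, against 75.2% on the autosomes. The choice of the domain from these peaks could itself raise the first share, so nothing is read from that contrast. The difference in the covered share of the domain, GFP CSDS minus GFP control, was -2.69 percentage points (29.2% against 31.9%), and on the autosomes it was 1.02 points. It was -1.16 points with equal numbers of the strongest peaks and -5.45 points at the common scale. Most of the bases lost lay between the Snhg14 start and A230006K03Rik (83.6 kb) and in A230006K03Rik (39.1 kb). The largest gains were 8.47 kb between the Snord115 and Snord116 arrays, 8.25 kb in the proximal Snord116 block and 8.22 kb beyond A230006K03Rik. In the distal Snord116 block 4.2 kb were gained.

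Knockdown in stressed mice (Zbt-KD CSDS against GFP CSDS) was accompanied by 2 opened peaks of 8 (21.2% over the list) and 2 closed of 13 (37.9%). Both closed peaks were narrower than the narrowest Zbt-KD CSDS peak (6.51 kb). With equal numbers of peaks 4 of 8 were opened and 0 closed, and at the common scale 0 were opened and 0 closed. The share over all peaks is at hand for neither setting, so nothing is read from these counts. The first opened peak (chr7:59796442-59806758, 10.3 kb) lay in the distal Snord116 block next to the assembly gap, with a fold enrichment of 2.28 that 27.9% of the list reached. The second (chr7:60289647-60298946, 9.3 kb) lay in an intron of the upstream Snrpn transcripts, with a fold enrichment of 1.64 that 80.7% reached. The domain was covered 5.2 points more (34.4% against 29.2%), against 0.271 points more on the autosomes. Of the 195 kb gained, 149 kb lay between the Snhg14 start and A230006K03Rik, where the upstream Snrpn block was wider, and 16.4 kb in the distal Snord116 block. The covered share of the stretch beyond the Snhg14 start was 22% in GFP CSDS, 48.6% in Zbt-KD CSDS, 49% in Zbt-KD control and 36.9% in GFP control, so that GFP CSDS was the low list of the 4. This stretch held most of the gain and its share was not read under the alternatives. The neighbouring A230006K03Rik stretch differed, with 45.1% in GFP CSDS, 45.3% in Zbt-KD CSDS, 66.1% in Zbt-KD control and 57.8% in GFP control.

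In unstressed mice (Zbt-KD control against GFP control) 4 of 12 peaks were opened (29.5% over the list) and 7 of 42 closed (29.3%). All 7 closed peaks were narrower than the narrowest Zbt-KD control peak (6.42 kb). The opened count became 6 of 11 with equal numbers of peaks, and 0 in the upper 50% and at the common scale. The closed count became 8 of 20 in the upper 50%, and 0 with equal numbers of peaks and at the common scale. All 4 opened peaks were between the Snhg14 start and A230006K03Rik, 6.45 to 18.0 kb wide with fold enrichments of 1.54 to 1.73. The domain was covered 3.0 points more (34.9% against 31.9%), against 1.14 points more on the autosomes. The difference was 0.107 points in the upper 50% of each list, 1.34 points at the common scale and 4.87 points with equal numbers of peaks. With stress under knockdown (Zbt-KD CSDS against Zbt-KD control) 2 of 8 were opened (26.1% over the list), the same peaks as in stressed mice above. Closed were 4 of 12 (23.5%), of which 1 was narrower than the narrowest Zbt-KD CSDS peak (6.51 kb). These counts became 0 and 1 at the common scale, and the closed count 0 in the upper 50%. The difference in the covered share was -0.5 points (34.4% against 34.9%). This difference turned to 2.86 points in the upper 50% of each list and was -2.47 points at the common scale. These comparisons share lists with each other, so their values are not independent.

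With ZBTB7A overexpression (ZBT-OE SSDS against GFP SSDS), 0 of 6 member peaks were opened (28% over the list) and 1 of 7 closed (26.2%). The closed peak was 8.89 kb wide in A230006K03Rik, below the narrowest ZBT-OE SSDS peak of 20.3 kb, with a fold enrichment of 1.59. The opened count became 1 when sharing required 50% of the shorter peak, and the closed count 0 in the upper 50% of each list and at the common scale. The difference in the covered share was -4.15 points (36% against 40.1%), and 0.333 points on the autosomes. The bases lost lay in A230006K03Rik (74.5 kb), beyond it (66 kb) and in the distal Snord116 block (35.3 kb lost and 22.8 kb gained), where 1 peak of 111 kb in GFP SSDS stood against peaks of 58.7 and 39.6 kb in ZBT-OE SSDS. Since 1 list stood for each group, none of these differences has a replicate check.

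Sequence that recurs in the genome moved with the peaks. A 31-base stretch found more than once cannot be placed by a read of that length alone, and by the study's methods only uniquely mapped reads were kept. Of the 31-base stretches of the domain inside peaks, 46.7% (Zbt-KD control) to 53.2% (ZBT-OE SSDS) were repeated, against 23.4% to 28.5% outside peaks. Inside autosomal peaks 36.2% to 42% were repeated, and outside them 13.7% to 14.2%. The Snord115 array had 86.4% repeated stretches, the distal Snord116 block 88.5% and the proximal block 92.9%. Ube3a did not follow this. Only 10.2% of its stretches were repeated, and 6.78% of those between Ube3a and Snord115, and both were covered in full in all 6 lists. Conversely, the part of the proximal Snord116 block covered in none of the 6 lists was repeated in 91.9%. In bins of 10 kb, the median was 47.5% over the 90 bins covered in all 6 lists and 14.2% over the 196 bins covered in none, with 23 of the 90 below 20%. GC content differed little, 39.1% to 39.9% inside peaks and 38% to 38.4% outside. The part of repeated sequence in the peaks was not tested.

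**Figure D5:**
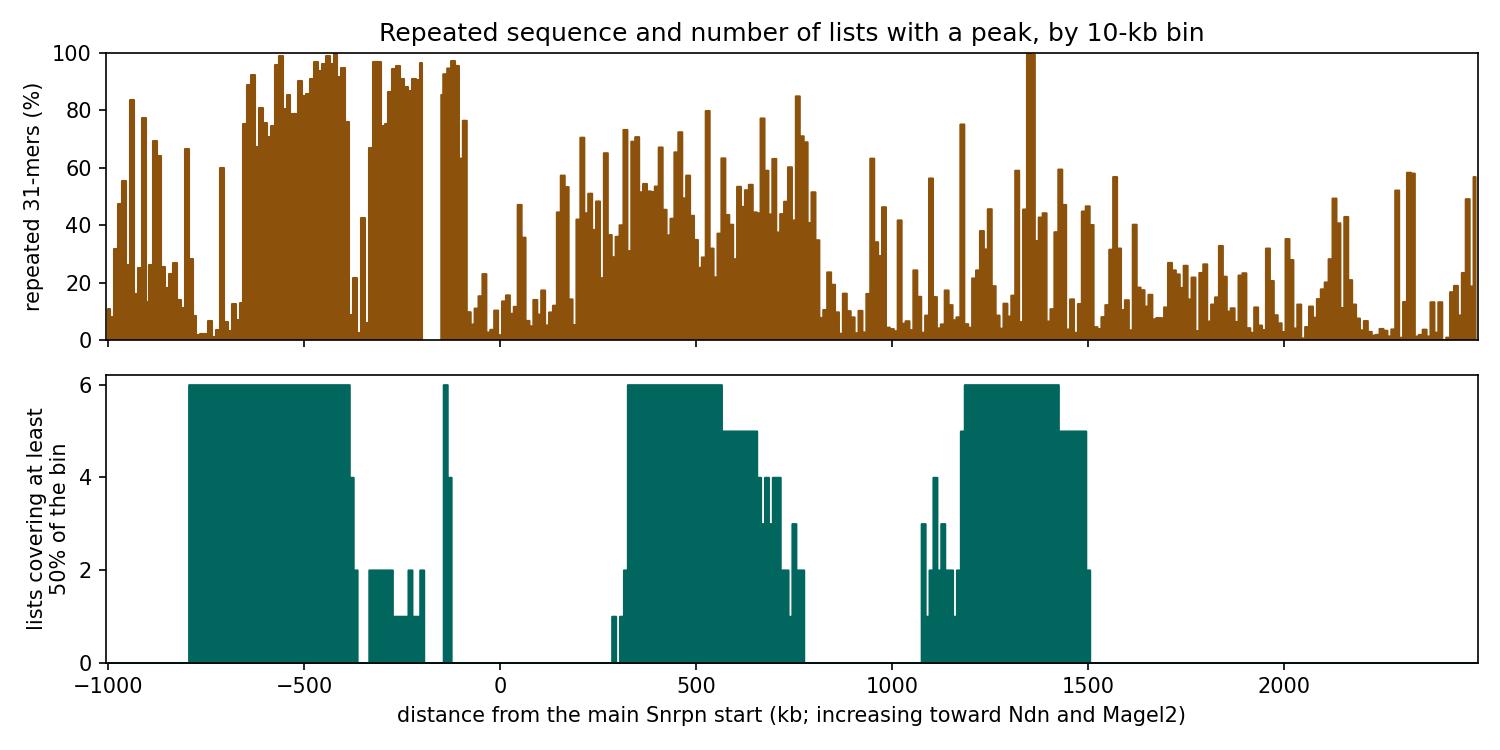
Share of 31-base stretches found more than once in the genome (upper panel, %) and the number of peak lists covering at least 50% of a bin (lower panel), in 10-kb bins by distance from the main Snrpn start in kb; the empty stretch of the upper panel left of 0 is the assembly gap. Both panels are high over Snord115 and the upstream Snrpn block, whereas Ube3a, at the left of the first block, is covered in all 6 lists with few repeated stretches.

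Other imprinted genes and the flanks of the domain were set beside it. Of 30 other imprinted genes found in the annotation, 0 were overlapped by a peak in any list, Rian and Mirg, hosts of the snoRNA and microRNA clusters of another imprinted domain, included. Over the autosomal protein-coding genes outside the domain 13.5% were overlapped in at least 1 list and 4.94% in all 6. The 30 imprinted genes include noncoding ones, so the sets are unlike and nothing is read from the difference. Of 10 genes on the flank from Tubgcp5 to Atp10a, 2 were overlapped in all 6 lists (Oca2, a melanosomal transporter, and Gabrg3, a GABA-A receptor subunit) and 4 in at least 1. Gabrg3 was covered by 27.1%, 30.8%, 26.7%, 10.0%, 31% and 29.4% in the order of the lists above. Other flanking genes varied more. In the same order Oca2 was covered by 4.93%, 32.9%, 52.8%, 14.8%, 66.1% and 33.4%, and Herc2 by 0%, 82.9%, 82.5%, 6.68%, 82.9% and 82.8%. Nipa1 was covered by 20.6% in GFP SSDS alone. Markers of cell types were nearly all without a peak. Among 10 astrocyte genes only Slc1a2, a glutamate transporter, was overlapped, in ZBT-OE SSDS alone and over only 0.161% of its length, at its start. Among 10 neuronal genes only Map2 was overlapped, in 4 lists, and among 10 microglial and 10 oligodendrocyte genes 0. The labelled cell type could therefore not be checked against these lists.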

How the data were processed

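ATAC-seq was measured in 32 samples of MACs-isolated mouse OFC astrocytes in 6 groups. By the study's methods, HISAT2 was used by the authors for alignment to mm10, reads with more than 1 place and duplicates were removed, MACS called the peaks, and the authors deposited 1 annotated peak list per group. How samples were combined is not given in the sources used here. Nor do they explain peaks of many Mb or narrowest widths that differ between lists. The wide blocks are therefore described as listed, and what signal lies behind their width is unknown. The fold enrichment in the deposited lists is the authors' ratio of signal over background, and the q-value in the deposited lists is the authors' value on the linear scale, at most 0.000234. Depth is unknown, so no precision can be given.

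Starts were read as counted from 1. Covered bases were counted over merged peaks, peaks were shared from an overlap of 1 bp, and copies, genes and promoters came from RefSeq GRCm38.p6 (promoters and snoRNA sequences included). Every 31-mer of the domain, and of autosomal positions 5000 bp apart, was counted over the assembled sequences and the unlocalized and unplaced scaffolds of the reference. The interval functions were tested on simulated data. Domain genes were named by role, and peaks in full for lists with few members, otherwise the strongest, the widest and those over member genes. The members and gene lists were chosen with earlier results of these data known. Alternatives were the upper 50% of each list, equal numbers of peaks, a common scale, peaks of 1 Mb or wider left out, other bounds and a stricter overlap. Human data, RNA-seq and the authors' diffReps comparisons over samples were not used here. Python 3.11.15, numpy 2.4.6, pandas 2.3.3, numba 0.67.0 and matplotlib 3.10.9 were used.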

Additional observations from a re-analysis of the deposited data

How the results depend on the processing

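Over 21 results and 105 alternative values, 84 stayed within the interval or the factor of 1.5 used to judge them and 21 moved. The covered shares of the domain and their differences between lists stayed within nominal 95% binomial intervals. These treat each share as a count out of 350, the number of 10 kb bins in the domain, as if bins were independent. They are wide, describe these lists and cover no replicate error. Neighbouring bins often lie in the same peak. Staying within these intervals therefore says little about stability. Within them, the difference of Zbt-KD CSDS minus Zbt-KD control changed sign, from -0.5 to 2.86 points in the upper 50%, and that of Zbt-KD control minus GFP control ran from 0.107 to 4.87 points. The 21 values that moved were counts of opened or closed peaks. Apart from these, the share of the distal Snord116 block, added after seeing the data, fell to 0% in Zbt-KD control (6.1%) in the upper 50% and at the common scale, and in Zbt-KD CSDS (16.2%) at the common scale, which drops by construction every knockdown peak there. It also became 0% in GFP control (0.775%) with equal numbers and at the common scale, and in GFP CSDS (3.92%) under all 3. In GFP CSDS against GFP control, the opened count of 1 became 0 in the upper 50% of each list, with equal numbers of peaks (1403) and at a common scale of 20.3 kb. In the same order, the closed count of 26 of 42 became 12 of 20, 4 of 9 and 0 of 3. In Zbt-KD CSDS against GFP CSDS, the opened count of 2 became 4 with equal numbers and 0 at the common scale, and the closed count of 2 became 0 under all 3. In Zbt-KD control against GFP control, the opened count of 4 became 0 in the upper 50% and at the common scale, and the closed count of 7 became 0 with equal numbers and at the common scale. In Zbt-KD CSDS against Zbt-KD control, the opened count of 2 became 0 at the common scale, and the closed count of 4 became 0 in the upper 50% and 1 at the common scale. In ZBT-OE SSDS against GFP SSDS, the opened count of 0 became 1 when sharing required 50% of the shorter peak, and the closed count of 1 became 0 in the upper 50% and at the common scale. The upper 50%, equal numbers and the common scale leave fewer peaks in 1 or both lists by construction, and the stricter overlap leaves as many. No paired analysis was possible because each group has 1 list, and no sample could be left out for the same reason.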
